A study of Mus musculus with 13 samples.

Results

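Fatty acid synthesis turns carbon from sugar into long-chain fatty acids, and its capacity in a tissue depends in part on the messenger RNA levels of its enzymes. Citrate leaves the mitochondrion and is split into acetyl-CoA, acetyl-CoA is carboxylated to malonyl-CoA, fatty acid synthase joins these units into palmitate, and membrane-bound enzymes of the endoplasmic reticulum then lengthen and desaturate it. Liver and fat are the tissues known for this pathway, in which insulin and the transcription factor SREBP-1 raise its genes together, whereas the exocrine pancreas is specialized for secreted digestive enzymes.

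The 9 genes described here were chosen by name as the core of this pathway in the mouse, with earlier results of these data known. They are Srebf1 (regulator), Acly, Acaca, Acacb and Fasn (synthesis), Elovl5 and Elovl6 (elongation), and Scd1 and Scd2 (desaturation). All 9 were present among the 23366 genes measured. Their levels were compared between young, old and old-OSKM pancreas to see whether the pathway changed with age and after 1 cycle of transient reprogramming.

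RNA sequencing was performed on whole pancreas of 13 female mice, with 1 library per mouse. Every mouse, controls included, was of the reprogrammable i4F-B strain, which carries a ubiquitous doxycycline-inducible transgene for OCT4, SOX2, KLF4 and MYC (OSKM) inserted in the Pparg gene, itself a master regulator of fat cells. The young group (n = 4, 13 weeks) and the old group (n = 5, 55 weeks) received no doxycycline. The old-OSKM group (n = 4, labelled 58 weeks) drank doxycycline with sucrose for 1 week from the age of 55 weeks and then recovered for 2 weeks. Doxycycline, sucrose, the transgene's expression and the additional weeks of age therefore cannot be told apart in the old-OSKM group.

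Values are RPKM (reads scaled to transcript length and to the mapped reads of the library) on the log2 scale, so that a difference of 1 is a doubling, and genes can be compared with each other because the scale is per length. The read total of each library is not in the table, so the counting error of a value is unknown. The 10 acinar markers summed to between 9686 and 10215 RPKM in each mouse, so the acinar pancreas was present throughout, although quantile normalization gives every library the same set of values and so fixes such sums in part. A few libraries stood apart. JCX1011 (old-OSKM) was the lowest of the 13 mice in 44.7% of all genes, against at most 11.3% for any other mouse. Markers of adjacent tissues were uneven, with the 10 hepatocyte markers summing to 87.9 RPKM in JCX1158 (young) against 3.97 to 9.46 in the other 12 mice, and the 10 adipocyte markers to 22.1 RPKM in JCX1025 and 19.5 in JCX1011 (both old-OSKM) against 4.74 to 10.9 in the other 11. Several of the differences below are also given without these 3 mice, which leaves 3 young, 5 old and 2 old-OSKM mice.

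The sequences upstream of the genes are shown because the members are known as shared targets of SREBP-1, which binds sterol regulatory elements next to boxes for the general factor NF-Y. RefSeq (GRCm38.p6, the assembly that the study's mm10 alignment uses) gave a window of 250 bases before and 50 after a transcription start for 7 of the 9 members, with 9 windows in all because Srebf1 has 3 starts. The last 170 bases before the start are printed 5′ to 3′ on the strand of the gene for 4 members, with matches to CCAAT (the NF-Y box, either strand) and CACGTG (an E-box, palindromic) in capitals. The members printed are those with an NF-Y box in this stretch, so they do not stand for all members. In Acly the box lies after the start, and the windows of Acaca and Elovl6 hold none.
Fasn, chr11:120824548-120824717, minus strand: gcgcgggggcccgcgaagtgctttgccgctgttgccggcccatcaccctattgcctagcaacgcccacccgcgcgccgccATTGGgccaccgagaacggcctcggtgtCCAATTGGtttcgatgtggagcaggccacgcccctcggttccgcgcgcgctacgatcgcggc
Acacb, chr5:114165348-114165517, plus strand: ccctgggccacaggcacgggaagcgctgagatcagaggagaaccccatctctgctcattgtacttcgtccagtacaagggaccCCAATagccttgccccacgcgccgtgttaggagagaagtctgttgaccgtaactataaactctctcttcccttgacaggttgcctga
Elovl5, chr9:77917195-77917364, plus strand: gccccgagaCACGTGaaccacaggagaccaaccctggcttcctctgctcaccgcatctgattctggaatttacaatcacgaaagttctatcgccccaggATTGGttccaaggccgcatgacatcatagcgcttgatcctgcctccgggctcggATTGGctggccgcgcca
Srebf1, chr11:60210472-60210641, minus strand: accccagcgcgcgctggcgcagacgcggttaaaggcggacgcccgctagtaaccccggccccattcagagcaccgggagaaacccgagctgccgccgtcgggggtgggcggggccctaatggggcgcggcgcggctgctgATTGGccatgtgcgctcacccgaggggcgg
The Srebf1 sequence belongs to 1 of its 3 windows, of which another also holds an NF-Y box. The first transcribed bases of the window shown were not found in the GENCODE transcripts of Srebf1, whereas those of the other 3 printed members and of the Srebf1 window at chr11:60222532-60222831 were. The printed starts of Fasn, Acacb and Srebf1 lie inside the outer bounds of their genes, so longer transcripts begin farther upstream. In the Fasn sequence 2 of the 3 NF-Y boxes overlap on opposite strands. Over the whole windows, 5 of the 7 members had an NF-Y box, and 41.1% of the 27025 genes with a window had one. An E-box was found in 1 member (Elovl5), and in 8.09% of all genes. The Sp1 box GGGCGG, the site of another general factor, was found in Acly and in Srebf1, and in 38.2% of all genes. The sterol regulatory element searched as TCACNCCAC (either strand) was in 0 of the 9 windows and in 1.44% of all genes, which says only that these letters are not in these windows.

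All 9 genes had a value in every mouse, and their order of levels was much the same from mouse to mouse. Without read totals, detection above a limit was not tested. Scd2, which makes monounsaturated fatty acids in most tissues other than liver, had the highest mean over the 13 mice at 3.01 log2 RPKM, above 97.5% of all genes. Acly followed at 2.73, Scd1 at 2.14, Srebf1 at 1.68, Elovl5 at 1.6, Fasn at 1.5, Acacb at 1.36 and Acaca at 0.38. Elovl6 was by far the lowest member at -1.85 log2 RPKM, which is 0.278 RPKM. Neighbours in this order were not always apart. Scd2 was above Acly in 11 of 13 mice, Srebf1 above Elovl5 and Elovl5 above Fasn in 10 of 13 each, and Fasn above Acacb in 11 of 13, and these 4 mean differences (0.09 to 0.29) were each smaller than their SD between mice (0.18 to 0.36). Acly was above Scd1 in 12 of 13 mice. Scd1 was above Srebf1, Acacb above Acaca and Acaca above Elovl6 in 13 of 13 mice.

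**Figure D1:**
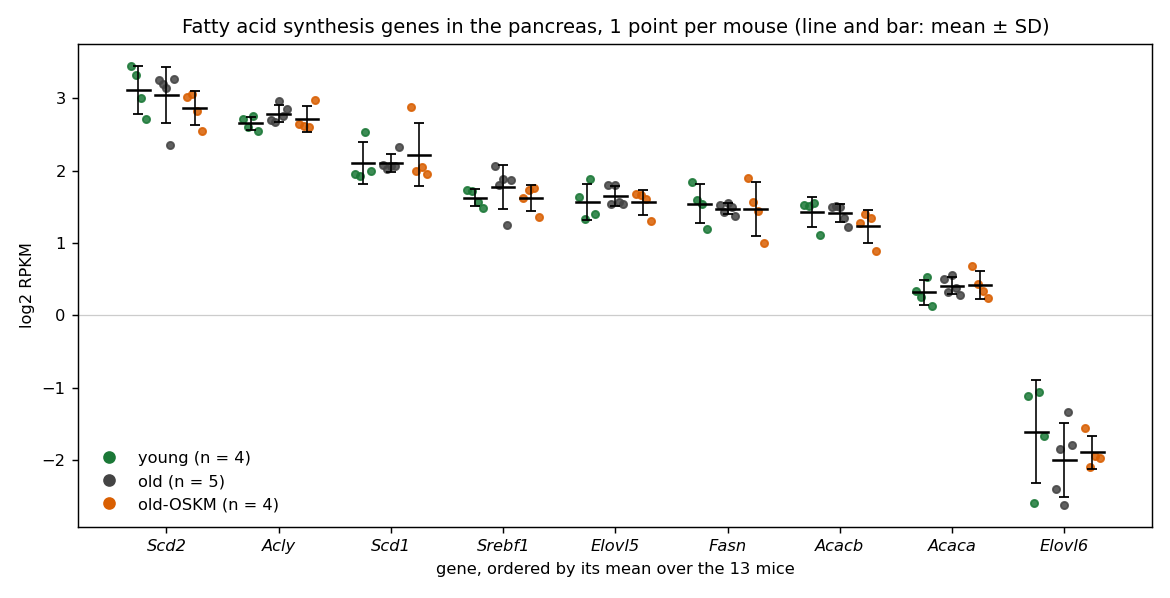
Level of each gene in log2 RPKM (vertical axis) in each mouse, with the genes ordered from left to right by their mean over the 13 mice and 1 point per mouse coloured by group. Horizontal lines and bars are the group mean ± SD, and the 3 groups overlap in every gene.

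None of the 9 genes passed the test for a change in any comparison of the 3 groups, neither with age nor after the reprogramming cycle. The members were counted as changed at a fold change over 1.5 with a raw p under 0.01, the thresholds that the study uses for its aging genes, in a limma fit over all genes and all 13 mice. Between old and young pancreas 0 of 9 members were called (0.886% of all genes were), and 0 of 9 had a raw p under 0.05 (5.52% of all genes). Between old-OSKM and old pancreas 0 of 9 were called (0.753% of all genes), and 0 of 9 had a raw p under 0.05 (8.07% of all genes). Between old-OSKM and young pancreas the counts were again 0 of 9 at both thresholds, against 0.625% and 5.07% of all genes. These comparisons share groups of mice, so they are not independent of each other. Fewer cells of a type and less RNA per cell cannot be told apart in whole tissue, nor can a change in a small share of the cells be seen against the rest.

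The differences were small as well as uncalled. Between old and young mice they ran from -0.40 (Elovl6) to 0.15 (Srebf1) on the log2 scale with a median of 0.00, the same as the median of all genes (0.00). Between old-OSKM and old mice they ran from -0.19 (Acacb) to 0.11 (Scd1) with a median of -0.08, against -0.04 for all genes. Between old-OSKM and young mice they ran from -0.29 (Elovl6) to 0.12 (Scd1) with a median of -0.01, against -0.04 for all genes. A miss of the threshold does not show equality, so the intervals matter more: the 95% confidence interval of the difference stayed within 1.5-fold in both directions for 8, 7 and 7 of the 9 members in the 3 comparisons. The exceptions were Elovl6 in all 3 comparisons, and Scd2 between old-OSKM and each of the other groups, for which a difference past 1.5-fold is within the interval.

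**Figure D2:**
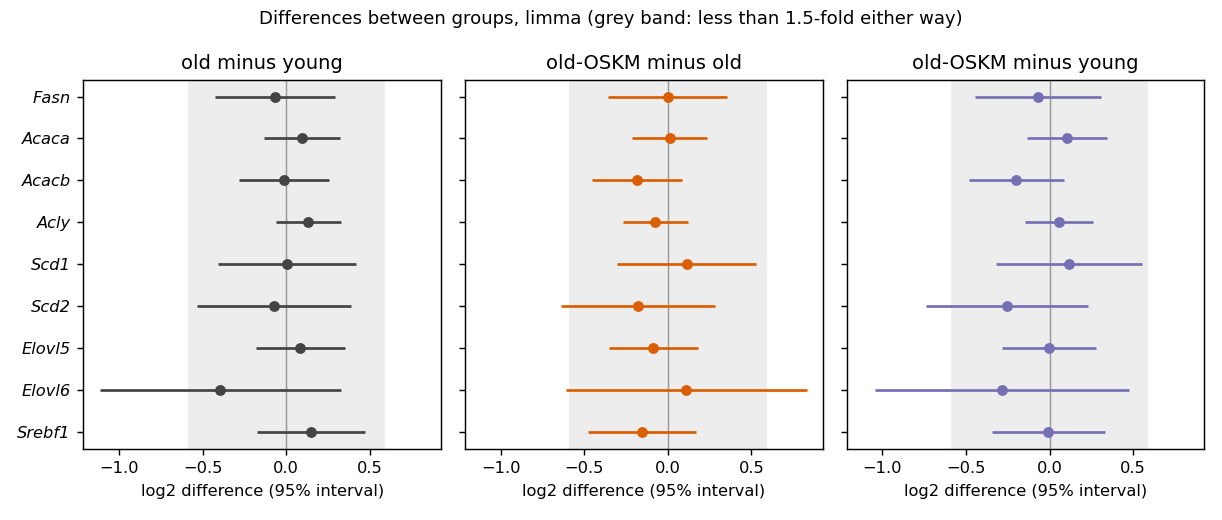
Difference between 2 groups for each of the 9 genes in log2 units (horizontal axis), 1 panel per comparison, with points for the limma estimate and lines for its 95% confidence interval. Every interval crosses 0, and those of Elovl6 reach outside the grey band of less than 1.5-fold in all 3 panels.

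Srebf1 (chr11:60199084-60224186) encodes SREBP-1, the membrane-bound factor that is cut and moves to the nucleus to raise lipogenic genes. Its level was 1.49, 1.57, 1.72 and 1.74 log2 RPKM in the young mice, 1.25, 1.80, 1.87, 1.89 and 2.07 in the old mice, and 1.36, 1.62, 1.73 and 1.76 in the old-OSKM mice. The old group held both the highest mouse (JCX1000) and the lowest mouse (JCX1051) of all 13. With all mice, old exceeded young by 0.15 ± 0.15 (SE; limma, adjusted p = 1.0), and old-OSKM was below old with a difference of -0.16 ± 0.15 (adjusted p = 0.638).
The spread of the old group rested largely on JCX1051. This mouse was also second of all 13 in the mean log2 RPKM of the hepatocyte markers (-0.76, against 2.56 in JCX1158). It is not among the mice left out for markers of other tissues, and whether these markers bear on its Srebf1 level was not tested. Without JCX1051 the remaining 4 old mice (1.80 to 2.07) lay above all 4 young mice (1.49 to 1.74) and above all 4 old-OSKM mice (1.36 to 1.76). The difference was then 0.28 ± 0.10 between old and young (limma adjusted p = 0.715) and -0.29 ± 0.10 between old-OSKM and old (limma adjusted p = 0.675). Neither reached 1.5-fold, so the count of called members remained 0. Other settings made the difference between old-OSKM and old smaller: it was -0.03 without JCX1158, JCX1025 and JCX1011, -0.07 without JCX1011 alone and -0.0069 with the adipocyte marker level as a covariate. JCX1051 was singled out after its values were seen, and the exact permutation p of 0.0286 in both comparisons is the smallest that 4 mice against 4 can give.

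Acly (chr11:100476352-100528000), ATP citrate lyase, splits cytosolic citrate into the acetyl-CoA on which synthesis draws. Its level was 2.56, 2.61, 2.72 and 2.75 in the young mice, 2.67, 2.71, 2.75, 2.86 and 2.96 in the old mice, and 2.61, 2.62, 2.64 and 2.98 in the old-OSKM mice. It was the steadiest member, with a residual SD of 0.13 after the group means were removed, at the 37th percentile of the 8410 genes with a mean over 0. The young mice lay below the old range or in its lower part, and 3 of the 4 old-OSKM mice lay just below it while JCX1011 lay above it. The difference between old and young of 0.13 ± 0.09 had the lowest p of the 9 members (exact permutation p = 0.135, limma adjusted p = 1.0). Without JCX1011 the difference between old-OSKM and old was -0.16 ± 0.07 (exact permutation p = 0.0536, limma adjusted p = 0.774), and it was -0.17 without all 3 of JCX1158, JCX1025 and JCX1011.

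Acaca (chr11:84129635-84401651) and Acacb (chr5:114146321-114250761) encode the acetyl-CoA carboxylases, which make malonyl-CoA: the cytosolic enzyme ACC1 feeds synthesis, and ACC2 at the mitochondrion makes the malonyl-CoA that holds back fatty acid oxidation. Acacb was at 1.11, 1.52, 1.52 and 1.56 in the young mice, 1.22, 1.35, 1.5, 1.5 and 1.51 in the old mice, and 0.89, 1.28, 1.35 and 1.4 in the old-OSKM mice. JCX1011 (0.89) lay below every other mouse, and the other 3 old-OSKM mice lay within the ranges of both other groups. The difference was -0.19 ± 0.12 to the old mice (limma adjusted p = 0.608) and -0.20 ± 0.13 to the young mice (adjusted p = 0.706). It was -0.31 to the young mice with a term for the 2 separate runs of identifier numbers among the samples (limma adjusted p = 0.712). What these numbers stand for was not established, and the later run held no old-OSKM mouse. The difference to the young mice was -0.30 without the young mouse JCX1164 (exact permutation p = 0.0571, limma adjusted p = 0.632). These differences rested largely on JCX1011: without JCX1158, JCX1025 and JCX1011 they were -0.04 to the old mice and -0.01 to the young mice, and without JCX1011 alone -0.07 and -0.09.
Acaca ranged from 0.13 to 0.54 in the young mice, from 0.28 to 0.55 in the old mice and from 0.24 to 0.68 in the old-OSKM mice. Its differences (0.09, 0.01 and 0.10 in the 3 comparisons) were within the spread of the mice, and between old and young it was 0.17 without the 3 mice. Of the 50-base windows of the annotated Acaca transcripts, 30.4% also occur in transcripts of other genes, most of them in Gm5182, so its values could be split between loci.
Within a mouse Acacb exceeded Acaca by 0.98 on average, or 1.97-fold. This ratio had a mean of 1.11 ± 0.14 (SD, n = 4) in young, 1.01 ± 0.11 (n = 5) in old and 0.81 ± 0.21 (n = 4) in old-OSKM mice. The 2 lowest ratios were those of JCX1025 (0.60) and JCX1011 (0.65), while the other 2 old-OSKM mice (0.98 and 1.01) lay within the range of the old mice. The difference between old-OSKM and young had an exact permutation p of 0.0571, which was 0.429 after adjustment over the 9 ratio tests.

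Fasn (chr11:120805958-120825166), fatty acid synthase, carries out every step from malonyl-CoA to palmitate on 1 polypeptide. It was at 1.20, 1.53, 1.59 and 1.85 in the young mice, 1.38, 1.42, 1.49, 1.52 and 1.56 in the old mice, and 1.00, 1.44, 1.56 and 1.90 in the old-OSKM mice. The old mice were the most alike (SD 0.07), and the old-OSKM group held both the highest mouse (JCX1025) and the lowest mouse (JCX1011) of the 13. The means of old and old-OSKM pancreas were equal to 2 decimals at 1.48, and the difference between them was -0.00027 ± 0.16 (limma adjusted p = 1.0), with a 95% interval from -0.36 to 0.36.

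Elovl5 (chr9:77917365-77984519) and Elovl6 (chr3:129532386-129638495) are elongases of the endoplasmic reticulum, of which ELOVL6 lengthens palmitate and ELOVL5 lengthens polyunsaturated fatty acids. Elovl5 ranged from 1.34 to 1.89 in young, from 1.54 to 1.81 in old and from 1.31 to 1.68 in old-OSKM mice, and its 3 differences were 0.08, -0.09 and -0.0028, or 0.19, -0.02 and 0.18 without the 3 mice.
Elovl6 was at -2.59, -1.66, -1.12 and -1.05 in the young mice, -2.62, -2.40, -1.85, -1.79 and -1.34 in the old mice, and -2.10, -1.97, -1.94 and -1.56 in the old-OSKM mice. At this low level it was also the most variable member, with a residual SD of 0.52 that exceeds that of 98.0% of the genes with a mean over 0. The difference of -0.40 ± 0.33 between old and young (limma adjusted p = 1.0) was the largest of any member. Without the young mouse JCX1163, at -2.59, it was -0.72 ± 0.27 (exact permutation p = 0.0893, limma adjusted p = 0.885), and without the young mouse JCX1158 it was -0.21. It was -0.10 on the scale of log2(RPKM + 1), which damps genes this low. Elovl5 exceeded Elovl6 by 3.44 on average within a mouse, or 10.9-fold, and this ratio passed no test between groups (lowest adjusted exact permutation p = 0.429).

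Scd1 and Scd2 are stearoyl-CoA desaturases, which place the double bond in oleate and palmitoleate, and SCD1 is the form typical of liver and fat. Scd1 was at 1.92, 1.96, 2.00 and 2.53 in the young mice, 2.02, 2.06, 2.06, 2.07 and 2.33 in the old mice, and 1.95, 2.00, 2.06 and 2.88 in the old-OSKM mice. In each group 1 mouse stood above all others, and the remaining 10 mice lay between 1.92 and 2.07. The high young mouse was JCX1158, the mouse with the highest hepatocyte markers, and the high old-OSKM mouse was JCX1025, the mouse with the highest adipocyte markers. The high old mouse, JCX1003, had 4.74 RPKM of adipocyte markers, the lowest sum of the 13, and 5.17 RPKM of hepatocyte markers. The difference between old-OSKM and old was 0.11 ± 0.19 (limma adjusted p = 0.766) with all mice and -0.08 without JCX1158, JCX1025 and JCX1011, and that between old and young was 0.00 and 0.15.

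Scd2 was at 2.71, 3.0, 3.32 and 3.45 in the young mice, 2.36, 3.15, 3.21, 3.25 and 3.26 in the old mice, and 2.55, 2.82, 3.02 and 3.07 in the old-OSKM mice. The old mice were alike except for JCX1051, the same mouse that was lowest in Srebf1. Scd2 differed between old-OSKM and old by -0.18 ± 0.21 (limma adjusted p = 0.689) with all mice. It was -0.10 without JCX1158, JCX1025 and JCX1011, -0.07 without JCX1011 alone and -0.03 with the adipocyte marker level as a covariate. Without JCX1051, a mouse left out after its values were seen, the old mice were at 3.15 to 3.26 and the old-OSKM mice at 2.55 to 3.07. The difference was then -0.35 ± 0.16 (exact permutation p = 0.0286, limma adjusted p = 0.675).
Scd2 exceeded Scd1 by 0.87 on average within a mouse, or 1.83-fold, but the ratio ran from 0.14 in JCX1025 to 1.49 in JCX1155. It had means of 1.01 ± 0.50 (SD, n = 4) in young, 0.93 ± 0.37 (n = 5) in old and 0.64 ± 0.39 (n = 4) in old-OSKM mice, and no comparison passed (lowest adjusted exact permutation p = 0.429). The genes lie in a cluster of Scd paralogs on chr19 (Scd2 at chr19:44293676-44306864 and Scd1 at chr19:44394450-44407709). Of their 50-base transcript windows, 4.56% (Scd1) and 3.97% (Scd2) also occur in other genes, mostly in Scd3 for Scd1 and in Scd1 for Scd2.

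The members varied together to some extent from mouse to mouse. After each group's mean was removed, 27 of the 36 pairs of members had a correlation above 0 over the 13 mice, with a mean of 0.26, against a mean of 0.02 over all pairs of genes with a mean over 0. The pair most alike was Scd2 and Srebf1 (Pearson r = 0.89, permutation p = 0.00297, adjusted p = 0.0535 over the 36 pairs; Spearman rho = 0.66, permutation p = 0.0152, adjusted p = 0.182). Without JCX1051 and JCX1164, the mice farthest from the median of Scd2, r was 0.74. Acaca and Elovl5 followed (r = 0.85, permutation p = 0.00156, adjusted p = 0.0535; rho = 0.90, permutation p = 0.00066, adjusted p = 0.0238), with r = 0.85 without the 2 mice farthest from the median of Acaca. Of the 36 pairs, 0 passed the adjustment by Pearson's r, and 1 (Acaca and Elovl5) passed it by Spearman's rho.
A group of Fasn, Acaca, Acacb and Elovl5, picked after the correlations were seen, had r between 0.57 and 0.85 in each of its 6 pairs. Spearman's rho in these pairs ran from 0.42 (Fasn and Acacb) to 0.90 (Acaca and Elovl5). Without the 2 mice farthest from the median of the first gene of a pair, r ran from 0.41 (Fasn and Elovl5) to 0.85 (Acaca and Elovl5). Without JCX1158, JCX1025 and JCX1011 these pairs had r between 0.46 and 0.87. Scd1 did not keep its relations: its r with Acaca was 0.69 over 13 mice and -0.49 over the other 10. Acly stood apart from the rest over 13 mice, with r from -0.37 to 0.02, but from -0.09 to 0.49 without these 3 mice.

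**Figure D3:**
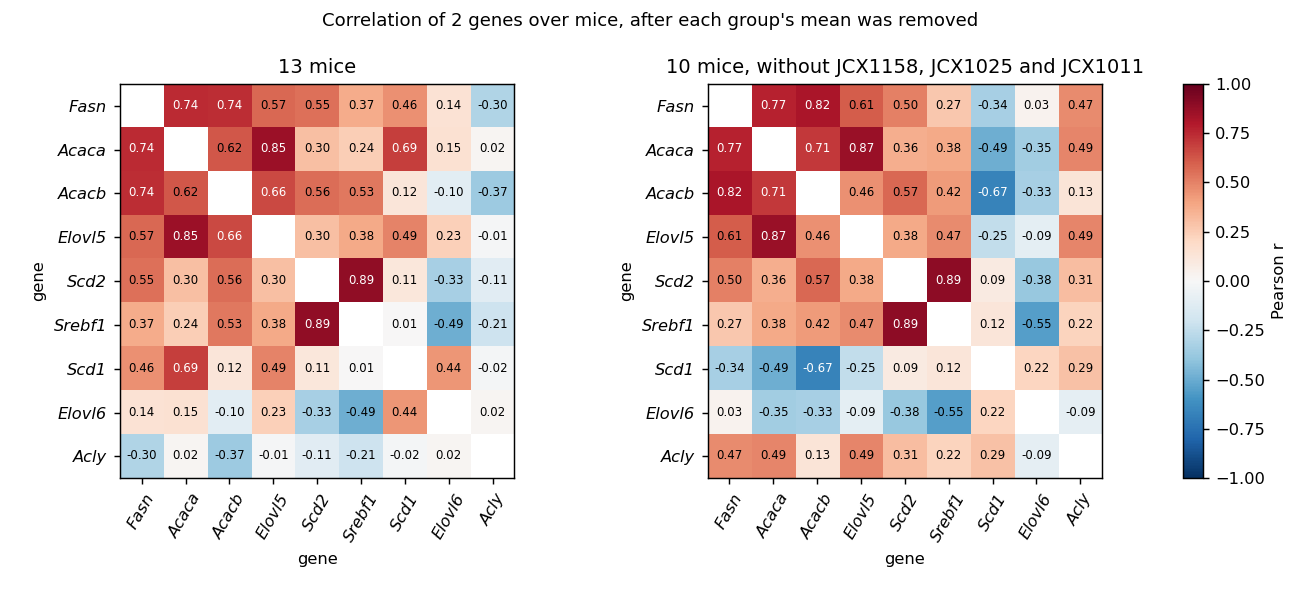
Pearson correlation of each pair of the 9 genes over mice after each group's mean was removed (colour scale from -1 to 1, value printed in each cell), for all 13 mice on the left and for 10 mice on the right. Scd2 with Srebf1 (0.89) and Acaca with Elovl5 (0.85 and 0.87) are high on both sides, whereas the values of Scd1 with Acaca, Fasn, Acacb and Elovl5 change sign.

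Across all genes with a mean over 0, the transcripts that followed each member most closely in the same measure came from varied functions. G6pdx, the enzyme that opens the pentose phosphate pathway and so supplies NADPH for reductive synthesis, was second for Fasn (r = 0.95), between the proton pump subunit Atp6v1a (0.97) and the long-chain acyl-CoA synthetase Acsl5 (0.95). Vps8, a subunit of an endosomal tethering complex, was first for Scd2 and second for Srebf1 (r = 0.91 for both). Elovl5 was second for Acaca (r = 0.85), after Cyrib (0.91). Among the genes most like Scd1 was Cfb, complement factor B (0.90). These are the highest of about 8393 values computed per member over 13 mice, and a search of this size picks out high values.

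The relation of the members to fat in the sample was examined because adipocytes are rich in these transcripts. Over the 13 mice the adipocyte marker level (mean log2 RPKM of the 10 markers) gave Pearson's r of 0.63 with Scd1 (permutation p = 0.0348, adjusted p = 0.253 over 9 members), but Spearman's rho was 0.18 (permutation p = 0.566, adjusted p = 0.849), and r was 0.46 without JCX1011 and JCX1025. JCX1025 had both the highest adipocyte markers and the highest Scd1, while JCX1011, second in adipocyte markers (-0.22 against 0.62 in JCX1025 on the mean log2 scale), had a Scd1 level of 1.95. Scd2 and Srebf1 were lower where adipocyte markers were higher, with rho of -0.79 (permutation p = 0.00225, adjusted p = 0.0202) and -0.71 (permutation p = 0.00868, adjusted p = 0.0391). Pearson's r was -0.40 (permutation p = 0.166, adjusted p = 0.373) and -0.49 (permutation p = 0.0895, adjusted p = 0.268), and without JCX1011 and JCX1025 it was -0.54 and -0.59. Within the young, old and old-OSKM groups (4, 5 and 4 mice) r was -0.87, -0.76 and -0.15 for Scd2 and -0.91, -0.78 and -0.63 for Srebf1. In the mice other than JCX1011 and JCX1025 the marker level lay between -2.24 and -1.16 mean log2 RPKM. Whether differences at such low levels follow the content of fat was not tested. With the median of the 10 markers in place of the mean, 0 of the 9 members passed, so the relation depends on how the markers are summarized. Srebf1 also failed the adjustment without any one of JCX1158, JCX1164, JCX1000, JCX1051, JCX1003 or an old-OSKM mouse (rho between -0.71 and -0.68), and Scd2 failed it without JCX1000 or JCX1003 (rho = -0.74 for both).
The hepatocyte marker level (2.56 mean log2 RPKM in JCX1158 and -0.76 in JCX1051) set these mice apart from the other 11. Those lay between -2.46 and -2.06, so relations with it are given within the 11. This range is narrow and lies below the mean of Elovl6, the lowest member. Whether such small differences at low levels follow the content of hepatocytes was not tested. Scd1 (r = 0.89, permutation p = 0.00557, adjusted p = 0.0251 over 9 members; rho = 0.74, permutation p = 0.0125, adjusted p = 0.0561) and Acaca (r = 0.82, permutation p = 0.00172, adjusted p = 0.0155; rho = 0.74, permutation p = 0.0124, adjusted p = 0.0561) were higher where hepatocyte markers were higher. Both passed by Pearson's r and missed by rank, and r was 0.58 and 0.54 without JCX1000 and JCX1025. Within the young, old and old-OSKM mice among the 11, r was -0.14, 0.35 and 1.00 for Scd1 and 0.88, 0.55 and 0.92 for Acaca, over 3 or 4 mice each. Elovl5 had r = 0.52 (permutation p = 0.0996, adjusted p = 0.263) and rho = 0.67 (permutation p = 0.0277, adjusted p = 0.0832). By rank over all 13 mice, Scd1 (rho = 0.77, adjusted permutation p = 0.0218), Acaca (0.74, 0.0218) and Elovl5 (0.66, 0.0485) passed, and these 3 genes were higher in JCX1158 than in 11, 10 and 12 of the other mice.

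**Figure D4:**
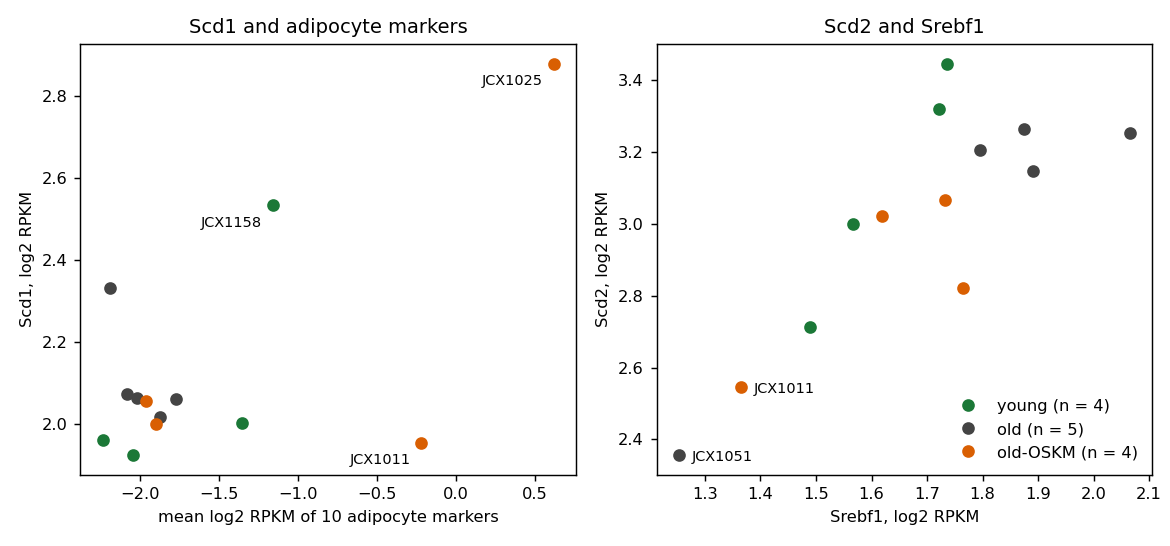
Scd1 against the mean log2 RPKM of 10 adipocyte markers (left) and Scd2 against Srebf1 (right), all axes in log2 RPKM and 1 point per mouse coloured by group. JCX1025 is far to the upper right on the left panel and JCX1011, next in adipocyte markers, is low in Scd1, while JCX1051 is lowest in both genes on the right panel.

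Few of the genes around the 9 members passed a threshold. Of 63 listed genes 62 were measured (Hsd17b8 was not), and between old-OSKM and old mice 1 was called up and 0 down, while between old and young and between old-OSKM and young mice 0 were called. At a raw p under 0.05 there were 3, 3 and 2 of 62 in the comparisons of old with young, old-OSKM with old and old-OSKM with young, which is 4.84%, 4.84% and 3.23%, against 5.52%, 8.07% and 5.07% of all genes.

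The called gene was Hacd4, a dehydratase of the elongation cycle of very long fatty acids. Its level was -1.07, -0.93, -0.79, -0.72 and -0.65 log2 RPKM in the old mice and -0.53, -0.37, -0.18 and 0.29 in the old-OSKM mice. It rose by 0.63 ± 0.20 (exact permutation p = 0.00794, limma adjusted p = 0.547), while the young mice (-1.13 to -0.19) overlapped both groups. The call depended on single mice: the difference was 0.47 without JCX1011 and 0.38 without JCX1158, JCX1025 and JCX1011, both under 1.5-fold, and the call was lost on leaving out any one of 9 of the 13 mice (JCX1155, JCX1163, JCX1000, JCX1001, JCX1002, JCX1003, JCX1025, JCX1027 or JCX1011). Scd3, another desaturase of the same cluster, was lower in old-OSKM than in old mice but at very low levels (-2.11 to -1.89 against -1.80 to -1.14), with a difference of -0.46 ± 0.19 (exact permutation p = 0.0159, limma adjusted p = 0.547).

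Among precursor supply and cofactor genes, 0 of 8 were called in any comparison. Acss1, which activates acetate in mitochondria, had the lowest p, at -0.29 ± 0.12 between old-OSKM and old (exact permutation p = 0.0714, limma adjusted p = 0.547), and was at -0.09 without the 3 mice. Me1, malic enzyme, a source of NADPH, was highest in JCX1025 at 0.49 against -0.84 to -0.15 in the other mice.
Among 15 regulators of lipogenesis 0 were called. Mbtps1, the protease that makes the first cut in SREBP, differed between old and young by -0.15 ± 0.05 without overlap (exact permutation p = 0.0159, limma adjusted p = 0.695). Genes named for the lowest p of a list, as here, tend to have groups that do not overlap. The share of all genes without overlap is not given here. Insig1, which holds SREBP in the endoplasmic reticulum and is itself a known SREBP target, had means of 2.92 in young, 3.13 in old and 2.91 in old-OSKM mice, with a difference of -0.22 ± 0.11 between old-OSKM and old (exact permutation p = 0.0476, limma adjusted p = 0.572). The carbohydrate-sensing factor Mlxipl had means of -0.72, -0.49 and -0.91, with a difference of -0.41 ± 0.24 in the same comparison (exact permutation p = 0.135, limma adjusted p = 0.608).

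Among the other 17 elongation and desaturation enzymes, the polyunsaturated fatty acid desaturases Fads1 and Fads2 had differences of opposite sign with age. Fads1 differed between old and young by 0.30 ± 0.13 (exact permutation p = 0.0317, limma adjusted p = 0.839) and Fads2 by -0.47 ± 0.15 (exact permutation p = 0.0476, limma adjusted p = 0.624). Fads2 was at 2.06 to 2.33 in the young mice and at 1.57 to 1.94 in the old-OSKM mice, with a difference of -0.40 ± 0.16 (exact permutation p = 0.0286, limma adjusted p = 0.706). Of the 6 measured genes of mitochondrial fatty acid synthesis and the 16 of acyl-CoA activation and glycerolipid synthesis, 0 were called and 0 had a raw p under 0.05. In the comparison of old-OSKM with old their lowest limma p belonged to the acyl carrier protein Ndufab1 (-0.33 ± 0.17, limma adjusted p = 0.565, and -0.12 without the 3 mice) and to the phosphatidate phosphatase Lpin1 (-0.12 ± 0.07, limma adjusted p = 0.608).

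**Figure D5:**
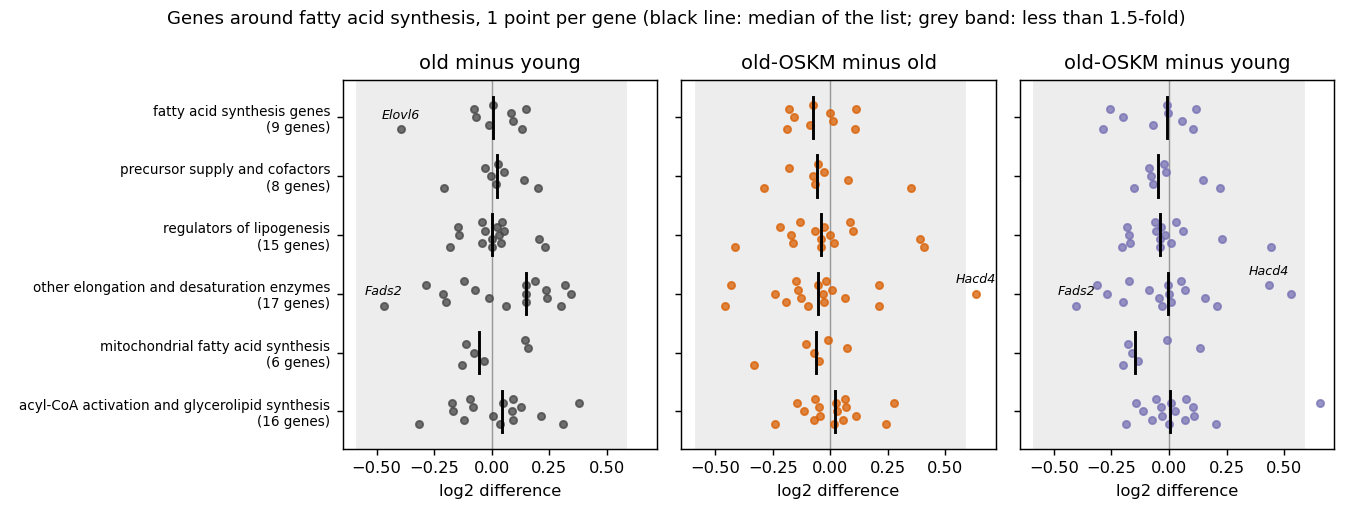
Log2 difference of every measured gene of the 6 lists (1 point per gene, black line for the median of its list), 1 panel per comparison, with the number of genes beside each list. All but 2 points lie within the grey band of less than 1.5-fold, and the points outside it are Hacd4 (0.63 between old-OSKM and old) and Dgat2 (between old-OSKM and young, not called).

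Some markers of other cell types were called between the groups. In old-OSKM against old mice 1 of 10 adipocyte markers was called, Plin1, the coat protein of fat droplets (1.53 ± 0.47, exact permutation p = 0.0159, limma adjusted p = 0.547). The collagens Col1a1 (0.88 ± 0.26) and Col1a2 (0.89 ± 0.28) were called among 10 fibroblast and endothelial markers (limma adjusted p = 0.547 for both). In old against young mice Col1a1 and Col3a1 were called down (-0.93 ± 0.26 and -1.04 ± 0.30, limma adjusted p = 0.469 and 0.511). Jchain, a plasma cell gene, was called up (2.35 ± 0.71, limma adjusted p = 0.551). In old-OSKM against young mice Jchain (3.04 ± 0.74, limma adjusted p = 0.584) and the B cell gene Ms4a1 (1.77 ± 0.54, limma adjusted p = 0.706) were called up. Ms4a1 was very low, with means of -3.08 log2 RPKM in young and -1.30 in old-OSKM mice, and these groups overlapped. Its difference was 0.35 with a pseudocount of 1. Without JCX1158, JCX1025 and JCX1011 the calls of old-OSKM against old were lost, with differences of 0.60 for Plin1, 0.44 for Col1a1 and 0.40 for Col1a2, whereas those of the other comparisons were kept (Col1a1 -1.14, Col3a1 -1.26 and Jchain 2.92 between old and young, Jchain 2.96 and Ms4a1 1.86 between old-OSKM and young). The kept calls of old-OSKM against young rest on 2 against 3 mice (exact permutation p = 0.2 for Jchain and 0.1 for Ms4a1). Each of the marker calls above but that of Jchain in old-OSKM against young was lost on leaving out at least 1 single mouse. None of the 10 acinar, 10 islet and 10 hepatocyte markers was called. The summed adipocyte markers ranged from 4.92 to 10.9 RPKM in young, from 4.74 to 7.97 in old and from 5.45 to 22.1 in old-OSKM mice. Adipoq, which only adipocytes make in quantity, was at 1.12 log2 RPKM in JCX1025, -0.49 in JCX1011 and -1.31 in JCX1158, against -3.32 to -2.26 in the other 10 mice. The fibroblast and endothelial markers summed to 34.3 to 63.0 RPKM in young, 25.8 to 32.4 in old and 32.6 to 84.0 in old-OSKM mice, and the macrophage and lymphocyte markers to 5.80 to 7.42, 6.98 to 12.4 and 8.75 to 26.4. The part of fibroblasts and immune cells in the members' levels was not tested. Of the 9 members, 0 were called in any comparison with the adipocyte marker level as a covariate, and 0 without JCX1158, JCX1025 and JCX1011.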

How the data were processed

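RNA was sequenced from whole pancreas of 13 female mice (4 young, 5 old, 4 old-OSKM), 1 library each. Per the labels and the study's methods, ribosomal RNA was depleted and paired-end reads were aligned to mm10 with STAR 2.3.0e. The authors deposited log2 RPKM values, which they estimated per isoform with Casper, summed per Entrez gene and quantile normalized, and reads mapping to 5 or more places had been excluded. Their methods also describe a correction for the read total of each library. Whether the values used here hold that correction could not be traced. Read totals are not in the table, so no counting interval is given.

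Groups were taken from the labels. All 23366 genes were fitted with limma 3.58.1 (R 4.3.3) on the deposited log2 values, with the 3 groups in 1 model and no covariate. Calls required a fold change over 1.5 together with a raw p under 0.01, and adjusted p-values are Benjamini-Hochberg over all genes. Single values were also compared by two-sided exact permutation tests, whose smallest p is 0.00794 for 5 mice against 4 and 0.0286 for 4 against 4. Correlations used 100000 permutations, within groups where group means were removed, with scipy 1.17.1 in Python 3.11.15. Since the labels do not describe the cages or litters of the mice, p-values cover the spread between these mice. The fit was tested on simulated data.

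The 9 members and all gene and marker lists were chosen with earlier results of these data known. Beside the members, the genes to name were those called in any comparison, the 2 of lowest raw p per pathway list in each of old against young and old-OSKM against old, the most abundant gene of each marker list and the 3 genes most correlated with each member, of which those that bear on a result are printed. Adipoq, the Fads2 values of old-OSKM against young and the single mice left out were chosen after their values were seen. Promoter windows and motifs came from RefSeq GRCm38.p6, and 50-base windows of GENCODE transcripts were compared between genes. Alternatives were pseudocounts of 1 and 0.1 on RPKM, a filter on a mean log2 over 0, covariates, the leaving out of each mouse and of 3 mice with markers of other tissues, and the median of a marker list. Leaving out the 3 mice, and giving the hepatocyte relations within 11 mice, were chosen after seeing the data.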

Additional observations from a re-analysis of the deposited data

Results flagged for a closer look

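In 6 of the 27 combinations of gene and group, 1 mouse lay farther from the rest of its group than Dixon's test allows, where chance gives about 1 in 20. The share over all genes was not computed, and the same 13 mice enter all 27 combinations. The count therefore does not show a trait of these genes. Of these, 3 concerned Scd1, with 1 mouse high in every group: JCX1158 in young at 2.53 log2 RPKM (nearest mouse 2.00), JCX1003 in old at 2.33 (nearest 2.07) and JCX1025 in old-OSKM at 2.88 (nearest 2.06). In young pancreas Acacb was low in JCX1164 at 1.11 (nearest 1.52). In old pancreas Scd2 was low in JCX1051 at 2.36 (nearest 3.15), and Srebf1 was lowest in the same mouse. In old-OSKM pancreas Acly was high in JCX1011 at 2.98 (nearest 2.64), while this mouse was the lowest of the 13 in Fasn, Acacb and Elovl5. It was also the lowest in 44.7% of all genes and in 36.2% of the genes with a mean over 0.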

How the results depend on the processing

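With 4 or 5 mice per group and no read totals, small changes cannot be seen. No paired analysis was possible because the labels give the groups no shared replicate numbers. The number of members called was 0 under all 24 settings in each comparison. Many of the member differences recomputed could not change sign. The gene filter, a fit of the compared groups alone, the exact permutation test and leaving out a mouse of the third group keep the estimate. Of 672 member differences recomputed, 608 kept their direction and their side of the threshold of 0.05 for the unadjusted p. That p was limma's, or that of the exact permutation test where it was the alternative. Another 8 moved past the threshold, and 56 changed sign, of which 46 were under 0.1 and the largest was 0.18. The cause of these changes was not tested.

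Without the 3 mice with markers of other tissues, the sign changed between old and young for Acacb (0.031), between old-OSKM and old for Fasn (0.025), Acaca (-0.028), Scd1 (-0.0812) and Elovl6 (-0.0154), and between old-OSKM and young for Acly (-0.010), Elovl5 (0.18) and Srebf1 (0.099). With the adipocyte marker level as a covariate it changed between old-OSKM and old for Fasn (0.00339), Acaca (-0.069), Scd1 (-0.17) and Elovl6 (-0.13), and between old-OSKM and young for Scd1 (-0.096) and Srebf1 (0.10). With the mean of all genes' z-scores in each mouse as a covariate it changed between old-OSKM and old for Fasn (0.11) and Elovl6 (-0.059), and between old-OSKM and young for Fasn (0.034), Acly (-0.0046), Elovl5 (0.046) and Srebf1 (0.11). A term for the runs of identifier numbers gave 0.010 for Elovl5 between old-OSKM and young, and Fasn between old-OSKM and old was 0.00653 with a pseudocount of 1 and 0.000913 with one of 0.1.

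Leaving out each mouse in turn, the old minus young difference ran from -0.18 to 0.034 for Fasn, -0.12 to 0.037 for Acacb, -0.056 to 0.15 for Scd1 and -0.21 to 0.097 for Scd2. The old-OSKM minus old difference ran from -0.14 to 0.16 for Fasn, -0.076 to 0.072 for Acaca, -0.11 to 0.20 for Scd1 and -0.046 to 0.27 for Elovl6. The old-OSKM minus young difference ran from -0.21 to 0.090 for Fasn, -0.033 to 0.090 for Acly, -0.10 to 0.26 for Scd1, -0.079 to 0.11 for Elovl5 and -0.056 to 0.077 for Srebf1. The old minus young ratio of Scd2 to Scd1 ran from -0.26 to 0.081.

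Of the 9 members, 2 passed the rank correlation with the adipocyte marker level, but 0 did with the median of the markers, 1 without the 3 mice, and between 0 and 2 without each mouse in turn. For Scd1 this correlation was -0.12 without the 3 mice and ran from -0.049 to 0.36 without each mouse. Over all genes the calls in the 3 comparisons were 207, 176 and 146, and with a pseudocount of 1 they were 16, 2 and 8.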
